A study of Mus musculus with 16 samples.

Results

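The genes described here are 30 genes of cholesterol synthesis and of SREBP-2, the transcription factor that controls it, measured in mouse macrophages. They were chosen by name and ordered by pathway step: 8 genes of the mevalonate and isoprenoid steps, 11 of the steps from squalene to cholesterol, SREBP-2 (Srebf2) with 5 genes of its control, 1 lipoprotein receptor and 4 genes of sterol transport and storage. Each gene is read by its brightest probe, kept where it was well above background on all arrays of at least 1 group. All 30 are on the array and passed that filter, among 12759 genes that passed it and 20659 named genes in all.

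Messenger RNA came from murine macrophages derived from stem cells, in 4 groups of 4 independent biological replicates lettered a to d. Treated cells received heme-albumin 200 µM, heme-albumin 50 µM or lipopolysaccharide (LPS) 10 ng/mL and were taken after 8 h, and control cells were untreated and taken at 0 h. The strain, genotype and age behind the stem cells are not given in the labels, and all 4 groups are the same kind of cell. Heme is the iron-bearing group of hemoglobin, given here bound to albumin, and LPS is a bacterial wall component that activates macrophages through Toll-like receptor signalling. The series asks whether heme triggers inflammation, and LPS serves as the inflammatory stimulus. No albumin or vehicle group at 8 h is among these samples, so 8 h of incubation and the treatment cannot be told apart in any comparison with the control. The comparisons of heme-albumin with LPS, and of its 2 doses, are matched in time. Without a group given albumin alone, heme and its albumin carrier cannot be told apart in these comparisons either.

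Cholesterol is built from acetyl-CoA through mevalonate, isoprenoid diphosphates, squalene and lanosterol. SREBP-2 is made as a membrane protein of the endoplasmic reticulum, where the sterol sensor Scap holds it and Insig proteins keep both in place while sterols are plentiful. When sterols run short, Scap carries SREBP-2 to the Golgi, proteases cut it there, and the freed fragment enters the nucleus and switches on genes of the pathway and of lipoprotein uptake. Macrophages take up much cholesterol with lipoproteins, cell debris and red cells, store it as esters and export it through transporters that LXR, a sterol-activated nuclear receptor, controls.

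Each array compared sample RNA, labelled red, with untreated RNA, labelled green, so a log2 ratio of 0 means equal signal, and control arrays carried untreated RNA in both colours. Between 49.9 and 59.4% of probes were well above background per array, and 4 arrays a group limit the precision. The 4 slides each held 1 array of every group, and a slide carried 1 replicate letter. Replicates a and b were scanned on one day and c and d on another. Of 10 listed macrophage markers, 9 are on the array and were above background on all 4 arrays of each group. Of 8 embryonic stem cell markers, Pou5f1, Sox2 and Zfp42 were above it on no array, while 3 at 200 µM, 4 at 50 µM, 3 after LPS and 4 in controls were above it on all arrays of the group. Their summed red signal ran from 305.6 to 417.6 at 200 µM, 265.4 to 445.5 at 50 µM, 748.3 to 807.5 after LPS and 280.3 to 348.8 in controls. Summed red signal of 6 neutrophil markers ran from 5028 to 7153 at 200 µM, 4668 to 5896 at 50 µM, 7344 to 14710 after LPS and 3007 to 4529 in controls. Summed signal of 7 fibroblast markers was 393.9 to 492.9 after LPS, against 28.17 to 68.05 in controls. Col1a1, Pdgfra and Thy1 were above background on no LPS array. Red signals were not scaled between arrays, so brighter arrays and more marker RNA cannot be told apart in these sums. Every marker list had a higher summed signal after LPS than in controls. For macrophage markers it was 289200 to 794100, against 70930 to 157000 in controls. Lymphocyte markers ran from 3112 to 4694 after LPS, against 1104 to 1831 in controls. The part of these cells in the results was not tested. In such bulk RNA, fewer cells of a type and less RNA per cell cannot be told apart. Of the 30 genes, 28 were above background on all 16 arrays. The exceptions were Mbtps2, on 3 of 4 arrays at 200 µM, and Dhcr7, on 3 of 4 arrays after LPS. Pmvk has no value on array a of either heme-albumin dose, where its spots were marked as outliers, and its fits used the other arrays.

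Promoters are shown because the pathway is known for its shared control elements, and the first 4 genes shown have the largest rise at 200 µM among those in RefSeq's promoter table (assembly GRCm38.p6). The table gave 25 of the 30 genes, not Fdps, Fdft1, Sqle, Stard4 or Npc1, as windows of 250 bases before to 50 after the transcription start, read 5′ to 3′ on the gene's strand. Capitals mark the motifs searched on both strands: the sterol regulatory element TCACNCCAC, which SREBP binds, the NF-Y box CCAAT, the Sp1 box GGGCGG and the E-box CACGTG, none of which contains another.
Lrp8, chr4:107802635-107802934, plus strand: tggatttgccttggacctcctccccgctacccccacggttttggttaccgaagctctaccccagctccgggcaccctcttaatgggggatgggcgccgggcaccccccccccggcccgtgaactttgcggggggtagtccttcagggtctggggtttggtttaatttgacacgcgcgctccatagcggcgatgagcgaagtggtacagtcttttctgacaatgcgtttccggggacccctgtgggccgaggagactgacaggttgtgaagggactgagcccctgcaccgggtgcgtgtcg
Cyp51, chr5:4104648-4104947, minus strand: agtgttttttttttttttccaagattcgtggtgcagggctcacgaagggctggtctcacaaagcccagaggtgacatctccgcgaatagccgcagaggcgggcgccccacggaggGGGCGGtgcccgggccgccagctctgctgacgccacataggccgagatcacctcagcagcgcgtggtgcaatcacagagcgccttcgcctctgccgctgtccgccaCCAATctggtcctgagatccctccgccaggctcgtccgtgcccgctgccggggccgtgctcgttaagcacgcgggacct
Idi1, chr13:8885356-8885655, plus strand: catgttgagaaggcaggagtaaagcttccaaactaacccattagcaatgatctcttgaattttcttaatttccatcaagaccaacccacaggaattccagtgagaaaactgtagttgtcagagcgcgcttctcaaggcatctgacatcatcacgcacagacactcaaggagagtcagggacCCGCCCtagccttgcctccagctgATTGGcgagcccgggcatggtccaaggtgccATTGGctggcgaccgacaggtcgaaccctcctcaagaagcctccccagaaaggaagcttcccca
Hsd17b7, chr1:169969156-169969455, minus strand: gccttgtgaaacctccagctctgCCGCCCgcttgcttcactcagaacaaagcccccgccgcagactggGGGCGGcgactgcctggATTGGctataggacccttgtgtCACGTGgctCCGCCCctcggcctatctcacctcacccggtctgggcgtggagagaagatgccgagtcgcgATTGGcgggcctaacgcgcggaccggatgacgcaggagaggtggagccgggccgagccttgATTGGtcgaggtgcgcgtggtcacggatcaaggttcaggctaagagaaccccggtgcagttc
Hmgcs1, chr13:119690194-119690273, plus strand, bases 94 to 173 of its window: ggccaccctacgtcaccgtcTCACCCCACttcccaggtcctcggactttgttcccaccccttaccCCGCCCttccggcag

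The Lrp8 window held none of the 4 motifs, nor did the windows of its 2 other starts in the table. The Cyp51 window held 1 CCAAT and 1 Sp1 box, that of Idi1 2 CCAAT boxes and 1 Sp1 box, and that of Hsd17b7 3 of each and an E-box. The Hmgcs1 stretch was picked after the search because Hmgcs1 was the only gene of the 25 whose window held the sterol element, as TCACCCCAC at base 114. By gene, the sterol element was in 1 of 25 (4.0%), against 1.44% of 27025 genes in the table. CCAAT was in 20 of 25 (80%), against 41.1% of all genes, and GGGCGG in 21 of 25 (84.0%), against 38.2%. CACGTG was in 5 of 25 (20%), against 8.09%. Some genes have several windows: by window, CCAAT was in 20 of 33, against 37.4% of all 32851 windows, and GGGCGG in 24 of 33, against 35.7%. These are matches of letters in a fixed window, not mapped binding sites.

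At 200 µM heme-albumin 7 of the 30 genes rose relative to untreated cells. The 7 genes that rose were Lrp8, a receptor for apolipoprotein E of the LDL receptor family, and 6 of the 19 synthesis enzymes: Cyp51, Sqle, Idi1, Fdps, Hsd17b7 and Msmo1. Their rises ran from 2.03-fold for Msmo1 to 3.25-fold for Lrp8. A gene was called when limma's adjusted p was under 0.05 and the change at least 2-fold. The share called among all 12759 genes was 2.02% higher and 0.972% lower, while 7 of the 30 were called higher and 0 lower. By adjusted p alone 18 of the 30 were higher, against 10.8% of all genes, and 1 lower, against 12%. The 1 lower gene was Srebf2, whose other probe gave the opposite direction, as described below. All 19 synthesis enzymes had a positive difference, against 45.4% of all genes, and 15 of the 19 passed by adjusted p. With normexp background correction 3 of the 30 were called, Idi1, Fdps and Sqle. The median difference of the 30 was 0.37 log2 units, beside −0.022 over all genes.

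Among the mevalonate and isoprenoid steps, Idi1, which interconverts the isoprenoid building blocks, had log2 ratios of 0.91, 0.94, 1.62 and 1.62 at 200 µM (replicates a to d), 0.40, 0.39, 0.56 and 0.65 at 50 µM, and −0.14, −0.11, −0.050 and −0.065 in controls. The 3 groups did not overlap, and replicates c and d were the high ones at 200 µM. The rise at 200 µM was 1.36 ± 0.21 log2 units (SE, limma, adjusted p = 0.00025).

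Fdps, farnesyl diphosphate synthase, whose product feeds both sterols and protein prenylation, read 1.01, 0.93, 1.17 and 1.19 at 200 µM, 0.48, 0.41, 0.41 and 0.41 at 50 µM, and −0.056, −0.051, −0.0015 and −0.044 in controls. Arrays of a group lay close together and the groups were apart. Fdps rose by 1.11 ± 0.068 log2 units at 200 µM (SE, limma adjusted p = 3.4e-08). Hmgcs1, which makes HMG-CoA, averaged 0.96 ± 0.18 at 200 µM and 0.048 ± 0.11 in controls (SD, n = 4 each). Its difference of 0.91 log2 units was just short of 2-fold, with an adjusted p of 3.1e-05 by limma. Mvd, Mvk and Pmvk, the enzymes that turn mevalonate into isopentenyl diphosphate, differed by 0.84, 0.37 and 0.33 log2 units, also short of 2-fold and with adjusted p under 0.05. The differences of Acat2, at the entry of the pathway, and of Ggps1, on the prenyl branch, were 0.18 and 0.16 log2 units, with adjusted p of 0.43 and 0.19 by limma.

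From squalene onward, Cyp51, the lanosterol demethylase, read 1.55, 1.37, 2.02 and 1.85 at 200 µM, 0.62, 0.73, 0.86 and 0.80 at 50 µM, and 0.17, 0.054, 0.12 and 0.18 in controls. Every array at 200 µM was above every array at 50 µM, and these were above the controls. The rise at 200 µM was 1.57 ± 0.12 log2 units, or 2.96-fold (SE, limma adjusted p = 4.0e-07).

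Sqle, squalene epoxidase, a rate-controlling step of the sterol branch, read 1.07, 1.17, 1.65 and 1.58 at 200 µM, 0.30, 0.40, 0.52 and 0.55 at 50 µM, and −0.22, −0.037, −0.23 and −0.23 in controls. The groups were again apart, in the order of dose. Sqle rose by 1.55 ± 0.20 log2 units at 200 µM (SE, limma adjusted p = 6.2e-05).

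Msmo1, which starts removal of the methyl groups at carbon 4 of the sterol ring, read 0.64, 0.71, 1.07 and 1.08 at 200 µM, 0.13, 0.18, 0.23 and 0.30 at 50 µM, and −0.19, −0.16, −0.13 and −0.11 in controls. Hsd17b7, the keto reductase of the same demethylation, read 0.84, 0.92, 1.26 and 1.09 at 200 µM, 0.23, 0.39, 0.065 and 0.28 at 50 µM, and −0.12, 0.058, −0.094 and −0.033 in controls. In both genes the arrays at 200 µM lay above all others of these 3 groups. The rises were 1.02 ± 0.092 log2 units for Msmo1 and 1.07 ± 0.17 for Hsd17b7 (SE, limma adjusted p = 1.6e-06 and 0.00032). Both stood near the 2-fold limit: without replicate c at 200 µM Msmo1 was at 0.96 and Hsd17b7 at 0.997, and without replicate d Msmo1 was at 0.96, so these calls were lost there. Stard4, a carrier of cholesterol through the cytosol, was at 0.93 ± 0.29 log2 units (SE) and not called. It would have been called without replicate a or b at 200 µM (1.03 and 1.05) or without control replicate a (1.08).

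The other enzymes of this branch that passed by adjusted p stayed under 2-fold: the squalene synthase Fdft1 at 0.83 log2 units, the desaturase Sc5d at 0.79, the lanosterol synthase Lss at 0.59, Nsdhl at 0.37 and the reductase Tm7sf2 at 0.24. Dimmer probes gave 0.13 ± 0.20 for Fdft1 and 0.070 ± 0.084 for Tm7sf2 (SE, limma adjusted p = 0.72 and 0.64 over all probes). That of Nsdhl gave 0.57 ± 0.10 and passed. The last isomerase and reductase did not pass. Ebp differed by 0.035 log2 units (95% interval −0.04 to 0.11) and Dhcr7 by 0.21 (−0.02 to 0.44), with limma adjusted p of 0.55 and 0.20.

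Lrp8 had the largest change of the 30 on the deposited ratios, but with normexp background correction it was at 0.75 log2 units and not called. That was under Idi1, Fdps and Sqle, which were still called there, and under Msmo1 at 0.98 and Cyp51 at 0.82. On the deposited ratios Lrp8 read 1.83, 1.92, 2.21 and 2.25 at 200 µM, 1.03, 0.96, 1.09 and 1.27 at 50 µM, and 0.20, 0.53, 0.46 and 0.22 in controls. All arrays at 50 µM lay between the other groups. Lrp8 rose by 1.70 ± 0.27 log2 units at 200 µM (SE, limma adjusted p = 0.00030), and its dimmer probe gave 1.46 ± 0.42.

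The genes that control SREBP-2 differed little at 200 µM, with the exception of Insig1, a retention protein that SREBP itself switches on. Insig1 averaged 0.90 ± 0.19 at 200 µM and 0.20 ± 0.19 in controls (SD, n = 4 each), a difference of 0.70 log2 units that passed by adjusted p (0.00012, limma) but was under 2-fold. Scap, Insig2, Mbtps1 and Mbtps2 differed by −0.098 to 0.11 log2 units and none passed. Soat1, which esterifies cholesterol for storage, was at −0.22, and Npc1 and Npc2, which move cholesterol out of lysosomes, at −0.035 and −0.21. None of these 3 passed.

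**Figure D1:**
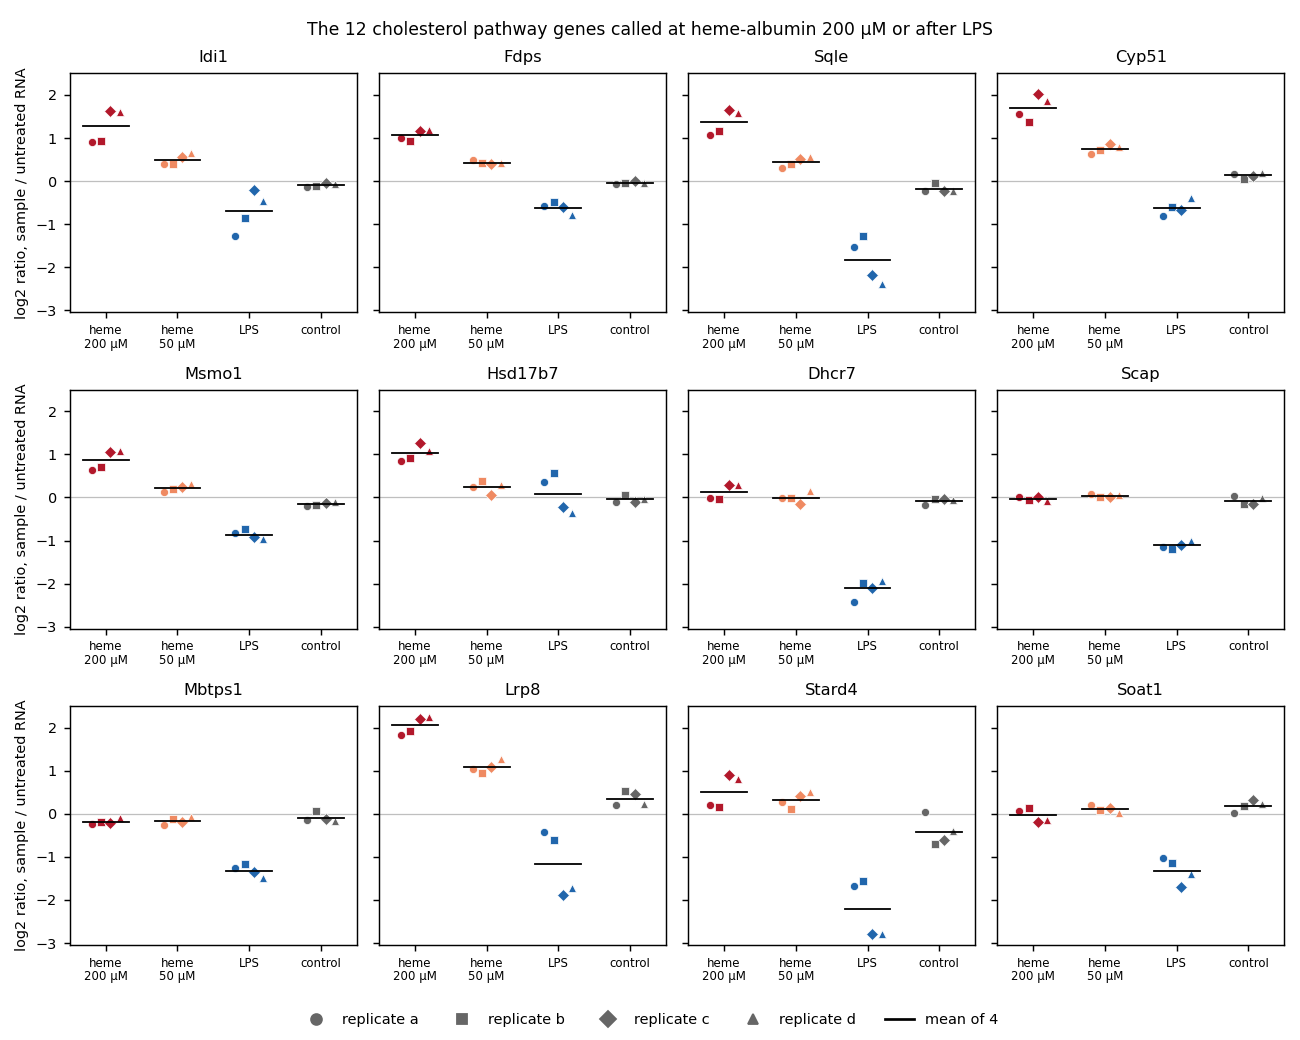
Log2 ratio of sample to untreated RNA (y axis) on each of 16 arrays for the 12 genes called at 200 µM heme-albumin or after LPS, with 1 symbol per replicate letter and a line at the mean of 4. Lrp8 and Sqle were called in both, higher at 200 µM and lower after LPS; Lrp8 at 200 µM sits between 1.83 and 2.25, above all other groups.

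The 2 probes of Srebf2 itself did not give the same direction at 200 µM. The brighter one read −0.12, −0.17, −0.23 and −0.16 at 200 µM and 0.013, −0.067, 0.056 and 0.032 in controls. The dimmer one read 0.56, 0.75, 0.82 and 0.77 at 200 µM and 0.0081, 0.14, −0.031 and −0.051 in controls. Neither probe's groups overlapped, and the differences were −0.18 ± 0.049 and 0.71 ± 0.091 log2 units (SE, limma adjusted p = 0.020 and 6.5e-05 over 21458 probes). Both probes carry the same RefSeq accession, both were kept as above background, and neither passed the 2-fold limit. At 50 µM the dimmer probe read 0.22, 0.27, 0.28 and 0.25, above every control array, while the brighter one read −0.094, −0.039, −0.070 and −0.052. After LPS both lay below the controls on average, the brighter probe at −0.28 log2 units and the dimmer at −0.19 (limma adjusted p = 9.8e-05 and 0.073 over all probes). No direction is therefore given for Srebf2 at either heme-albumin dose. Of 78 comparisons in the 13 genes with 2 kept probes, 0 gave opposite calls and 5 were called by 1 probe alone.

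**Figure D2:**
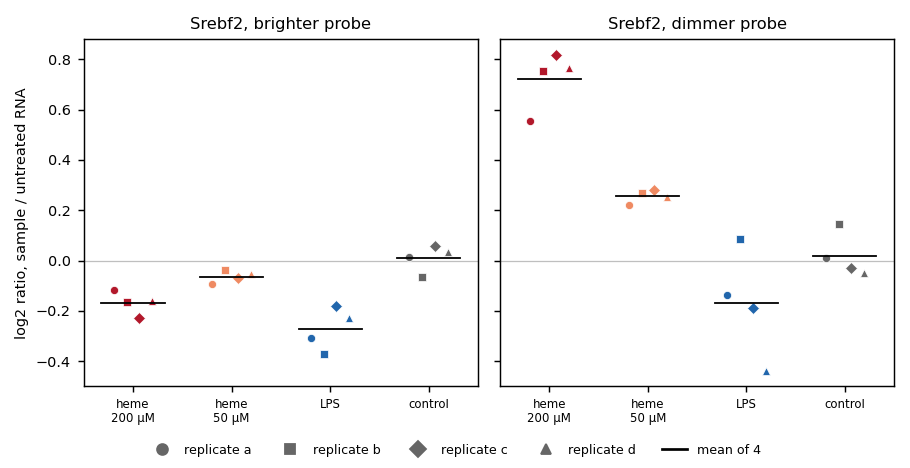
Log2 ratio of sample to untreated RNA (y axis) on each array for the brighter and the dimmer Srebf2 probe, with 1 symbol per replicate letter and a line at the mean of 4. At 200 µM the brighter probe sits below 0 on all 4 arrays and the dimmer one between 0.56 and 0.82.

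At 50 µM heme-albumin none of the 30 genes was called in either direction, with 0.29% of all genes called higher and 0.0784% lower. At an unadjusted p under 0.05 there were 13. The share of all genes at that unadjusted p is not given, so this count is not a result about the 30. By adjusted p alone 4 were higher, against 2.07% of all genes, and 0 lower: Cyp51 by 0.62, Fdps by 0.47, Msmo1 by 0.36 and Fdft1 by 0.34 log2 units (limma adjusted p from 0.00096 to 0.043). The dimmer probe of Fdft1 had the opposite sign, at −0.44 ± 0.20 log2 units (SE, limma adjusted p = 0.38 over all probes). Lrp8 and Sqle were at 0.73 and 0.62 log2 units with adjusted p of 0.20 and 0.14 by limma. A positive difference was seen in 18 of the 19 synthesis enzymes, against 45.4% of all genes. The median of the 30 was 0.17 log2 units. All 4 arrays lay above all 4 controls for 15 of the 30 genes and below for 0, against 8.74% and 10.4% of all genes.

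Between the 2 doses, 200 against 50 µM, again none of the 30 was called, with 0.619% of all genes called higher and 0.196% lower. By adjusted p alone 14 were higher, against 4.2% of all genes, and 0 lower, against 3.41%. An unadjusted p under 0.05 was found for 15 genes, again without the share of all genes beside it. The largest differences were just under 2-fold: Lrp8 at 0.97 ± 0.27 log2 units, Cyp51 at 0.95 ± 0.12 and Sqle at 0.92 ± 0.20 (SE, limma adjusted p = 0.040, 0.00018 and 0.011). Without replicate a at 200 µM, Sqle (1.02) and Lrp8 (1.04) were called, and without replicate b Cyp51 (1.06). The arrays at 200 µM lay above those at 50 µM, and those above the controls, for 13 of the 30 genes, 12 of them synthesis enzymes, against 4.08% of all genes. The reverse order held for 0 of the 30 and 3.81% of all genes. The medians of the 30 genes per array show the same order: 0.28 to 0.56 at 200 µM, 0.16 to 0.23 at 50 µM and −0.032 to 0.0055 in controls. On the first scan day the median difference from control at 200 µM was 0.33 log2 units with 5 genes called, and on the second 0.43 with 9. The share of all genes called on each day is not given, so these counts are not a result about the 30. All 7 genes called at 200 µM differed more on the second day, such as Idi1 at 1.05 and 1.68 and Sqle at 1.25 and 1.85. Among synthesis enzymes Mvd, at 0.93 and 0.75, and Ebp, at 0.061 and 0.0092, went the other way. No gene's difference between days passed in the test of scan day by treatment, which has few arrays per group and day.

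**Figure D3:**
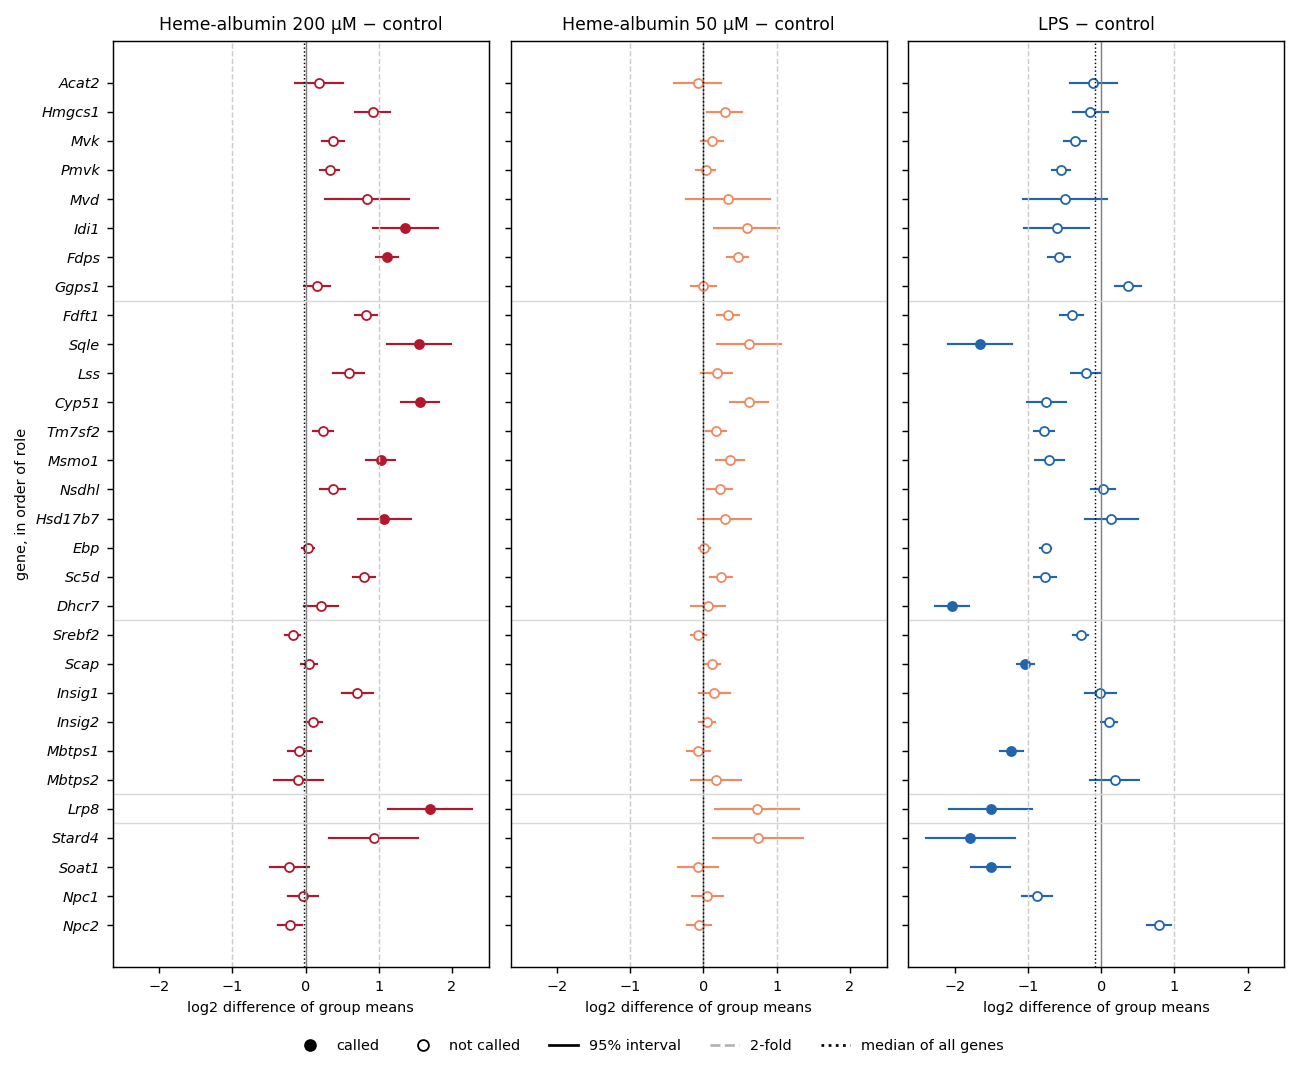
Log2 difference of group means from untreated control (x axis, 95% interval as a line) for the 30 genes in order of role, at 200 µM heme-albumin, at 50 µM and after LPS. Filled points were called: 7 at 200 µM, 0 at 50 µM and 7 after LPS. All 19 synthesis enzymes in the upper 2 blocks lie right of 0 at 200 µM, against 45.4% of all genes.

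After LPS, genes at several levels of the pathway were lower than in untreated cells. The 7 genes that fell were the enzymes Dhcr7 and Sqle, the cholesterol carrier Stard4, the esterifying enzyme Soat1, the receptor Lrp8, and the SREBP regulators Mbtps1 and Scap. LPS changed a large part of all genes, 14% called higher and 16.7% lower, and of the 30 genes 7 were called lower, not far from that background, and 0 higher. By adjusted p alone 19 were lower, against 44.4% of all genes, and 2 higher, against 34.5%. The median of the 30 was −0.56 log2 units, beside −0.090 over all genes.

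Dhcr7, which makes cholesterol from 7-dehydrocholesterol in the last step of one branch, had the largest fall. It read −2.43, −1.98, −2.10 and −1.93 after LPS, against −0.16, −0.047, −0.039 and −0.069 in controls. Dhcr7 fell by 2.03 ± 0.11 log2 units, to 0.245 of the control level (SE, limma adjusted p = 2.1e-10). Sqle read −1.52, −1.28, −2.18 and −2.38 after LPS and fell by 1.66 ± 0.20 log2 units (SE, limma adjusted p = 2.7e-06), beside the control values given above. No array of either gene overlapped the controls. Other enzymes stood below the controls by less than 2-fold: Tm7sf2 at −0.78, Sc5d at −0.77, Ebp at −0.76, Cyp51 at −0.75 and Msmo1 at −0.71 log2 units, all with limma adjusted p under 0.05. In all, 12 of the 19 synthesis enzymes were lower by adjusted p, against 44.4% of all genes. Ggps1, at 0.36 log2 units, and Npc2, at 0.79, were the 2 genes that were higher by that test, both under 2-fold.

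Mbtps1, the first of the Golgi proteases that cut SREBP, read −1.27, −1.17, −1.35 and −1.501 after LPS, against −0.15, 0.057, −0.12 and −0.17 in controls. Scap, the sterol sensor, read −1.15, −1.19, −1.10 and −1.01 after LPS, against 0.025, −0.16, −0.15 and −0.023 in controls. Both fell on every array: Mbtps1 by 1.23 ± 0.073 and Scap by 1.04 ± 0.053 log2 units (SE, limma adjusted p = 7.7e-10 and 1.2e-10). At 200 µM heme-albumin the same genes read −0.23 to −0.088 and −0.082 to 0.010. Insig1, Insig2 and Mbtps2, the protease of the second cut, differed from control by −0.015, 0.10 and 0.18 log2 units after LPS and did not pass. The dimmer probe of Insig2 gave 0.51 ± 0.12 log2 units (SE, limma adjusted p = 0.0013 over all probes). It passed by adjusted p but was under 2-fold, so the 2 Insig2 probes differ here.

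Soat1 read −1.04, −1.13, −1.70 and −1.40 after LPS, against 0.014, 0.18, 0.33 and 0.23 in controls, and fell by 1.51 ± 0.12 log2 units (SE, limma adjusted p = 3.3e-08). Stard4 read −1.68, −1.56, −2.79 and −2.79 after LPS, against 0.036, −0.70, −0.60 and −0.39 in controls. Lrp8 read −0.42, −0.60, −1.88 and −1.72 after LPS, beside the positive control values above. In Stard4 and Lrp8 the arrays after LPS formed pairs, replicates a and b above c and d. The falls were 1.79 ± 0.29 and 1.51 ± 0.27 log2 units (SE, limma adjusted p = 4.0e-05 and 0.00010). The dimmer probe gave −0.86 ± 0.16 for Stard4 and −0.90 ± 0.42 for Lrp8, under 2-fold in both. With normexp background correction Lrp8 was at −0.73 and Scap at −0.83 log2 units after LPS, and neither was called. Npc1 was at −0.88 log2 units, under 2-fold with an adjusted p of 1.0e-06 by limma.

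The pairs follow the scan day, and the response to LPS differed between days across the array. Each day holds its own replicates, so the scan day cannot be told apart from a difference between the cultures of a and b and those of c and d. The term of scan day by treatment passed for 12 of the 30 genes, against 33.6% of all genes. On the first day 6 genes were called lower after LPS and on the second 8, and the medians were −0.54 and −0.59 log2 units. The share of all genes called on each day is not given, so these 2 counts are not a result about the 30. Mvd had the widest gap, at 0.26 log2 units from control on the first day and −1.24 on the second. Lrp8 was at −0.88 and −2.14, Stard4 at −1.28 and −2.29, and Sqle at −1.27 and −2.05. Idi1 went the other way, at −0.95 on the first day and −0.28 on the second. Hsd17b7 was at 0.50 and −0.22, so its sign differed. Dhcr7, Mbtps1 and Scap lay closer, at −2.10 and −1.96, −1.17 and −1.28, and −1.10 and −0.97. Of the 7 called, Lrp8 was not called on the first day and Scap not on the second. Because all 16 arrays share 1 estimate of the spread, this gap also widens the standard errors of Mvd, Lrp8 and Stard4 (0.27 to 0.29) in the heme-albumin comparisons.

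**Figure D4:**
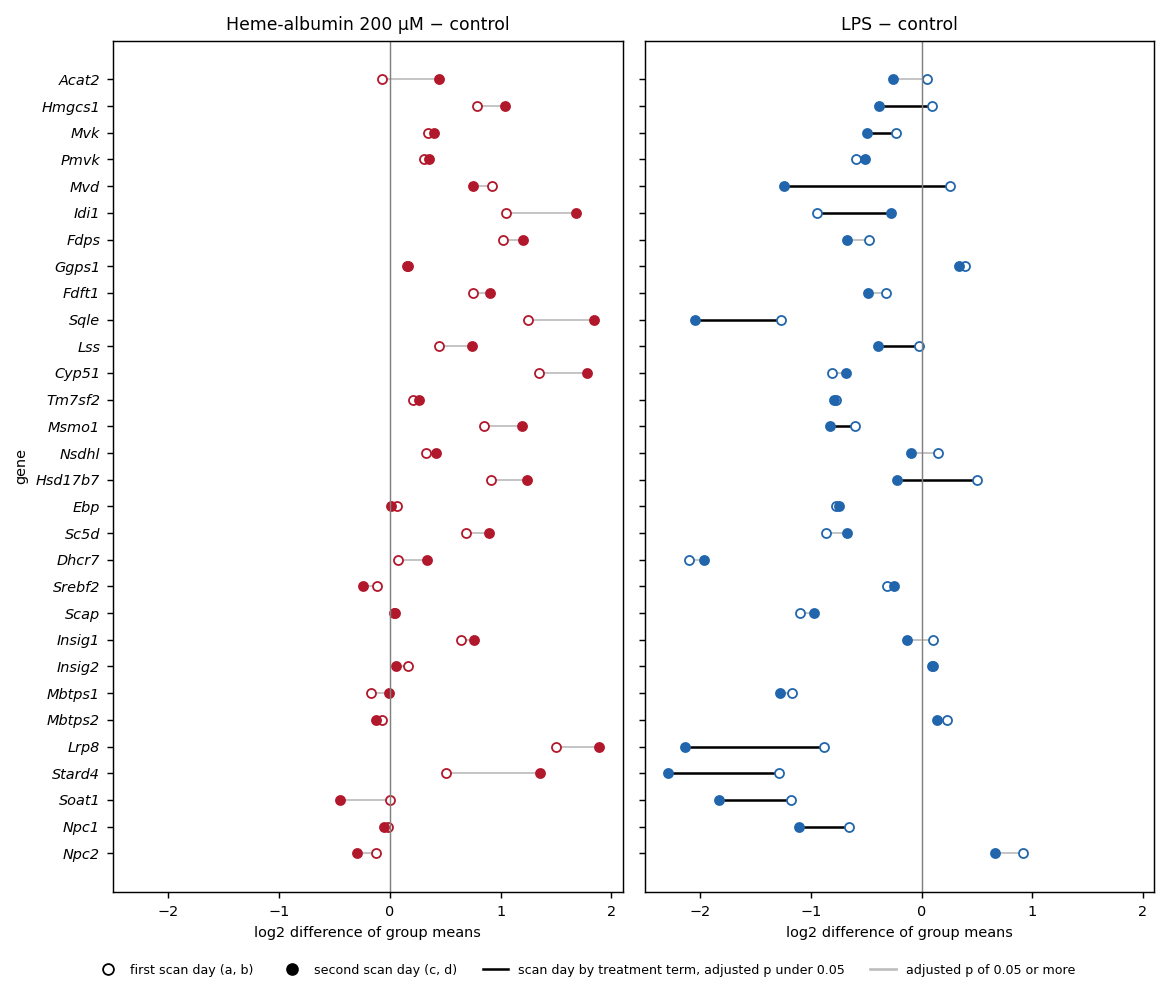
Log2 difference from untreated control (x axis) of each of the 30 genes on the first scan day (replicates a and b, open) and the second (c and d, filled), at 200 µM heme-albumin and after LPS. Black lines mark the 12 genes after LPS whose scan day by treatment term had an adjusted p under 0.05; at 200 µM there were 0.

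Heme-albumin was set against LPS at the same 8 h. At 200 µM 16 of the 30 genes were called higher than after LPS and 0 lower, where 16.8% of all genes were called higher and 13.6% lower. The median difference was 1.04 log2 units, beside 0.10 over all genes. Of the synthesis enzymes, 4 of 8 in the mevalonate and isoprenoid steps and 7 of 11 from squalene on were called. Lrp8 and Sqle led, each 9.23-fold higher at 200 µM (3.21 ± 0.27 and 3.21 ± 0.20 log2 units, SE, limma adjusted p = 3.4e-08 and 1.7e-09). Stard4 was 6.58-fold, Cyp51 4.97-fold and Dhcr7 4.73-fold higher. These differences combine a rise at 200 µM with a fall after LPS for Lrp8 and Sqle, while Dhcr7, Soat1, Scap and Mbtps1 were called against LPS with differences from control of only −0.22 to 0.21 log2 units at 200 µM. Npc2 stood at −0.999 log2 units, at the edge of the 2-fold limit, and was called lower without replicate a or b at 200 µM (−1.05 and −1.01) or without LPS replicate c or d (−1.05 and −1.04). Hmgcs1, at 1.06, was not called without LPS replicate c or d (0.997 and 0.98). Tm7sf2, at 1.02, was not called without replicate c or d at 200 µM (0.98 without c, and just under 2-fold without d) or LPS replicate a (0.99). Hsd17b7, at 0.94, was called without LPS replicate a or b (1.03 and 1.10). The scan day term passed for 13 of the 30 here, against 34.4% of all genes. On the first day 13 were called higher and 1 lower, and on the second 19 and 0. These counts by day also stand without the share of all genes called on that day.

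At 50 µM 12 of the 30 were called higher than after LPS and 0 lower, where 16.7% of all genes were called higher and 13.9% lower, and the median was 0.80 log2 units. The count was 6 with normexp background correction and 7 with no background subtraction. They were Idi1, Fdps, Sqle, Cyp51, Msmo1, Sc5d, Dhcr7, Scap, Mbtps1, Lrp8, Stard4 and Soat1. Stard4 had the largest difference, 2.53 ± 0.29 log2 units, followed by Sqle at 2.28 ± 0.20 and Lrp8 at 2.24 ± 0.27 (SE, limma adjusted p = 1.1e-06, 7.9e-08 and 1.9e-06). Sc5d, at 1.01, was not called without replicate b at 50 µM (0.99) or LPS replicate a or b (0.97 and 0.99), and Fdps, at 1.04, not without LPS replicate d (0.98). Without LPS replicate a or b, Mvd was called (1.05 in each case), and without replicate a so was Npc1 (1.04). The comparisons of 200 and of 50 µM share the LPS arrays.

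Genes around the pathway were counted in 5 further lists. In fatty acid synthesis and SREBP-1, 15 of 17 genes were measured, and Pnpla3 and Thrsp were not above background in any full group. At 200 µM 1 of the 15 was called higher and 0 lower (median 0.26 log2 units), with 2.02% and 0.972% of all genes called: Acss2, which makes acetyl-CoA from acetate, read 1.99, 2.05, 1.49 and 1.10 at 200 µM and −0.048, −0.094, −0.17 and −0.10 in controls. It was 1.76 ± 0.22 log2 units above control and 1.27 ± 0.22 above 50 µM (SE, limma adjusted p = 4.0e-05 and 0.0022). After LPS, where 16.7% of all genes were called lower and 14% higher, 8 of the 15 fell and 0 rose (median −1.51), led by the elongase Elovl6 at −3.97, the lipid phosphatase Lpin1 at −3.09, the acyl-CoA ligase Acsl3 at −2.69 and the desaturase Fads1 at −2.50 log2 units. At 50 µM 0 of the 15 were called, where 0.29% of all genes were called higher and 0.0784% lower. Called higher than after LPS were 10 at 200 µM and 9 at 50 µM, against 16.8% and 16.7% of all genes.

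In a list of 11 genes of LXR, its targets, sterol efflux and oxysterol synthesis, 1 was called higher and 3 lower at 200 µM (median −0.35 log2 units). The shares of all genes were 2.02% and 0.972%. The cholesterol exporter Abca1 read −1.49, −1.62, −1.67 and −1.59 at 200 µM, −0.26, −0.22, −0.37 and −0.26 at 50 µM, and 0.13, 0.055, 0.011 and −0.0012 in controls. It fell by 1.64 ± 0.19 log2 units (SE, limma adjusted p = 1.6e-05). The lipoprotein Apoe was at −1.46 and the exporter Abcg1 at −1.16 log2 units. The 1 gene called higher, at 1.47 log2 units, was Ch25h, which makes 25-hydroxycholesterol, an oxysterol that blocks SREBP processing. After LPS 2 rose and 3 fell, against 14% and 16.7% of all genes, with Ch25h at 4.20, the LXR gene Nr1h3 at 1.29, Apoe at −2.11 and Scarb1 at −1.13. Abca1 after LPS read 1.305, 1.26, 0.16 and 0.57, split by scan day, and was not called. Between the doses Abca1 at −1.31 and Apoe at −1.14 were called lower at 200 µM, where 0.196% of all genes were. At 50 µM none of the 11 was called against control, where 0.29% of all genes were called higher and 0.0784% lower.

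The 14 SREBP and sterol sensing partners had no call against control at any treatment, with medians of 0.060 at 200 µM, 0.0054 at 50 µM and 0.11 log2 units after LPS. Of all genes 2.02% were called higher and 0.972% lower at 200 µM, 0.29% and 0.0784% at 50 µM, and 14% and 16.7% after LPS. At either heme-albumin dose, 0 calls in a list this short are therefore near the share of all genes. Of these 14, 3 were higher and 1 lower by adjusted p alone at 200 µM, 0 at 50 µM, and 6 higher and 6 lower after LPS. By the same measure 10.8% of all genes were higher and 12% lower at 200 µM, and 34.5% higher and 44.4% lower after LPS. The 12 genes of the prenyl, dolichol and ubiquinone branches had 0 calls at either heme-albumin dose and 2 called higher after LPS, where 14% of all genes were, Pggt1b and Pdss1 at 1.26 and 1.24 log2 units. Of 11 other genes of sterol handling, 0 were called at either heme-albumin dose, as in the prenyl list again near the shares of all genes. After LPS 2 of these rose and 3 fell, against 14% and 16.7% of all genes, among them the sterol reductase and lamin receptor Lbr at −2.53, the cholesterol ester hydrolases Nceh1 and Lipa at −1.55 and −1.29, and the transfer protein Gramd1a at 1.72 log2 units. Where 0 genes of these lists were called, limma's unadjusted p was under 0.05 for some. At 50 µM these were 3 in fatty acid synthesis, 2 sensing partners, 2 in the prenyl branches, 3 in the LXR list and 3 other sterol genes. At 200 µM these were 6 sensing partners, 3 in the prenyl branches and 4 other sterol genes. The share of all genes at that unadjusted p is not given, so these counts are not a result about the lists.

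**Figure D5:**
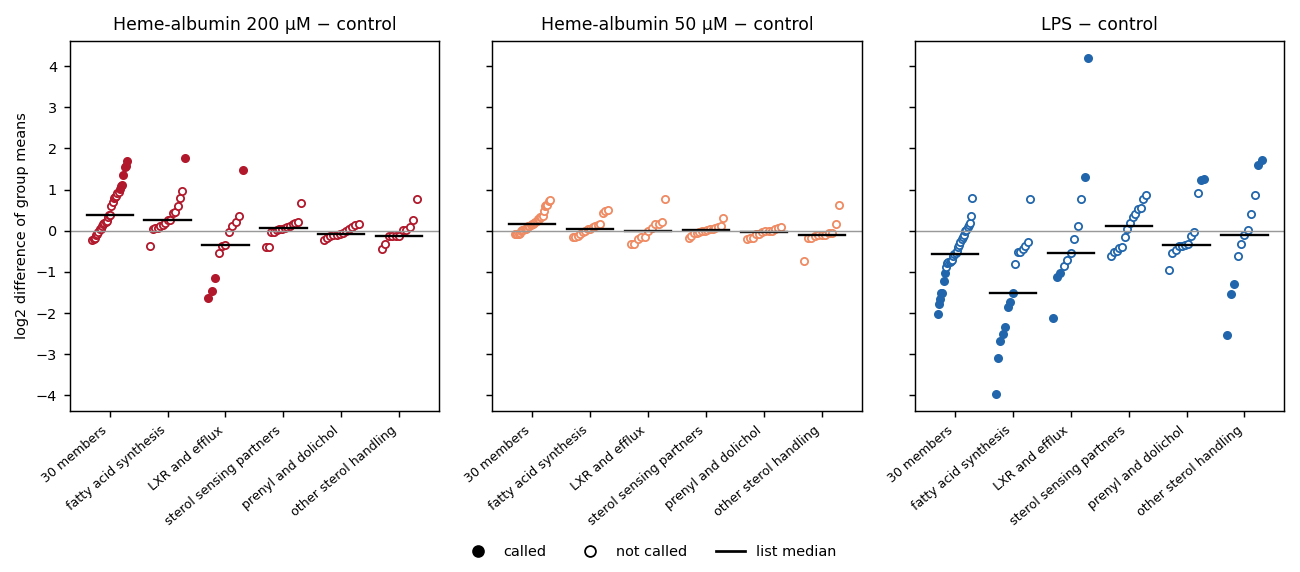
Log2 difference of group means from untreated control (y axis) of each gene in the 30 genes of the pathway and in 5 neighbouring lists, at 200 µM heme-albumin, at 50 µM and after LPS, with filled points for called genes and a line at each list's median. At 200 µM the medians run from −0.35 in the LXR list to 0.37 in the 30 genes; after LPS fatty acid synthesis is lowest at −1.51.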

How the data were processed

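Two-colour Agilent arrays of 16 samples were used. Per the file headers, the deposited LogRatio values give the log10 ratio of red (sample) to green (untreated), made by Agilent Feature Extraction 10.7.3.1 with background subtraction and a linear-lowess correction for dye, and the deposited signals are intensity values. The deposited values of the series hold the same log10 ratios (largest difference 0). The submitters' notes name an analysis of variance and a 2-fold filter.

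Log10 ratios were turned into log2. Control and outlier spots were dropped (188 to 690 outliers per array) and spots of 1 probe averaged. Probes were named by accession through RefSeq genes of GRCm38.p6 (27234 of 39429). Kept were 21458 probes whose red signal was flagged well above background throughout at least 1 group, and the brightest stood for its gene (12759 genes). All arrays were fitted with limma 3.58.1 in R 4.3.3 (group means, eBayes, median 14.1 degrees of freedom), and p-values adjusted by Benjamini-Hochberg over all genes in each of 6 comparisons. The log2 differences are given as group minus the group named second. data.table version 1.17.8 and matplotlib 3.10.9 were also used.

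The members, lists, tests and alternatives were chosen with earlier results of these data known. All 30 members may be named. Per-array values are given for called members, and up to 4 genes of each other list are named, called ones and large changes first. On simulated data of 12759 genes for 200 µM against control, 97% of genes changed 3-fold and 45% of those changed 2-fold were called, and 2 of 12559 unchanged ones. A 2-fold change lies at the limit of the call itself. The simulated noise was independent between arrays, with no effect of slide or scan day, so these shares are not error rates of the real calls. Untreated RNA fills both colours of a control array, so the spread of this group may be mostly technical.

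Arrays of 1 letter share a slide, per the file headers, and a title tag, and were treated as paired in an alternative. Their deviations correlated at over 0.1 in 5 of 6 comparisons (0.102 to 0.501) and at 0.0969 to 0.113 between LPS and control. Slide position is fixed within each group, so position and group cannot be told apart. Alternatives covered background correction, centring, the red channel alone, the dim probe filter, the choice of probe, blocks, single scan days, moderation, array weights, the fold limit and each array left out. The second probe and the scan day term were added after the data were seen.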

Additional observations from a re-analysis of the deposited data

Results flagged for a closer look

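Among 118 sets of 4 arrays (1 gene in 1 group), 3 had 1 array far from the others relative to their range, where chance gives about 1 in 20 sets. Insig1 at 200 µM read 1.18 on replicate d, against 0.83 on the nearest array. Fdps at 50 µM read 0.48 on replicate a, against 0.41 on the nearest, a small gap in a tight group. Sqle in the controls read −0.037 on replicate b, against −0.22 on the nearest.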

How the results depend on the processing

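With replicate letter as a block (the shared slide), the pairing changed no count of called genes: 7 at 200 µM against control, 0 at 50 µM, 7 after LPS, 0 between doses, 16 for 200 µM against LPS and 12 for 50 µM against LPS, as with scan day as a block. Without a minimum fold the counts were 19, 4, 21, 14, 26 and 25 in that order. With normexp background correction 3 genes were called at 200 µM against control and 6 at 50 µM against LPS, and with no background subtraction 7 at 50 µM against LPS. On the second scan day alone 4 were called between doses. Leaving out single arrays gave 0 to 2 between doses, and stayed within 1.5 times the counts above in the other comparisons. Normexp put Cyp51 at 0.82, Lrp8 at 0.75, Msmo1 at 0.98 and Hsd17b7 at 0.51 log2 units at 200 µM, and Lrp8 at −0.73 and Scap at −0.83 after LPS, all under 2-fold. No direction of a called gene turned. Of 963 values of called genes under alternatives, 904 kept the call and 59 fell under a limit. Dropping the fold limit could not lose a call, and fits with an array left out share most of their arrays. The tally is therefore not a measure of how firm the calls are. No scaling moved the median of all genes by over 0.1 log2 units. The 4 arrays per group and the probes near background limit the precision.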
